A study of Mus musculus with 16 samples.

Results

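The 8 genes described here, Slco2b1, Cd209a, Cdkn2a, Tanc1, Tjp1, Kcnj11, Sorbs2 and Shroom3, were picked because their array signal differed between macrophages of lipin-1 mutant mice and of control mice. They are 8 of the 17466 features that were kept from single-colour arrays holding 41174 probes, and 14 probes carry their names. These genes were chosen by the measured differences between genotypes, without and with LPS, so those differences are given below as descriptions, with no test. The study compared adherent peritoneal macrophages of male mice on 16 arrays in 4 groups of 4. Control cells came from mice heterozygous for the fld mutation, so the controls also carry an fld allele, and the mutant cells came from fld mice of the same BALB/cByJ-Lpin1fld/J strain. Cells of each genotype were either untreated or given LPS at 100 ng/ml for 5 h in medium without serum. The series title states the question as the effect of lipin-1 on gene expression when Toll-like receptor 4 is stimulated. The mutation is carried by the whole animal, so the cells also differ in the mice they came from. The labels used here give no age, and do not say whether arrays with the same replicate number share a mouse. Each group lay on a slide of its own with a scan of its own, and the slide cannot be told apart from the group.

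Lipin-1 is a phosphatidate phosphatase that turns phosphatidic acid into diacylglycerol on the way to triglycerides and phospholipids, and it can also act in the nucleus as a partner of transcription factors. Mice with the fld mutation lack working lipin-1 and develop a fatty liver as pups, lipodystrophy and a neuropathy. Lipopolysaccharide is sensed by Toll-like receptor 4 on macrophages, which then switch on inflammatory genes through NF-kB and interferon regulatory factors. The picked genes do not form 1 pathway. Slco2b1 encodes an organic anion transporter of the plasma membrane, and Cd209a encodes a C-type lectin of the DC-SIGN family that binds sugars on microbes. Cdkn2a encodes the cell cycle inhibitors p16 and ARF from alternative first exons. Tjp1 encodes the tight junction scaffold ZO-1, Tanc1 a scaffold of the postsynaptic density, Sorbs2 an adaptor of actin and cell adhesions, and Shroom3 an actin-binding protein that drives apical constriction in epithelia. Kcnj11 encodes the pore subunit Kir6.2 of the ATP-sensitive potassium channel.

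Levels below are log2 processed intensities relative to the 75th percentile of each array, so that 0 is the level that 75 percent of the spots on that array do not exceed. Levels of different genes come from different probes and are not compared with each other. A spot was called well above background by the scanner software, and on each array the lowest such level lay between -5.39 and -3.75. This lowest level was between -5.34 and -5.02 on control untreated arrays and between -5.25 and -4.84 on fld untreated arrays. It was between -5.39 and -4.69 on control LPS arrays and between -4.99 and -3.75 on fld LPS arrays. The highest of these values, and the lowest 75th percentile of intensity of all arrays (189 against up to 627), belong to replicate 4 of the fld LPS group. Between 58.7% and 65.4% of spots were well above background on each array, and replicate arrays of a group correlated at r = 0.961 to 0.993 over the kept probes.

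The labels were first checked on Lpin1 itself. Over the 3 probes annotated to the RefSeq transcript of Lpin1, the mean level lay between -3.53 and -2.86 on the 8 control arrays. It lay between -6.72 and -5.46 on replicates 1 to 3 of both fld groups, below every control array. On fld replicate 4 it was -1.62 without LPS and -3.03 with LPS, the first above the control range and the second within it. The 2 arrays labelled fld replicate 4 therefore carry Lpin1 signal against their label, so their genotype is in doubt, and every fld mean of 4 arrays below holds 1 of them. The differences without these 2 arrays are given together after the patterns. On the fourth Lpin1 probe the difference was -0.13 ± 0.31 (SE, n = 4 arrays a group) without LPS and 0.28 ± 0.31 with LPS, at adjusted p = 0.887 and 0.650 (limma, Benjamini-Hochberg over 17465 features). On that probe fld replicate 4 again stood apart, at -0.63 without LPS, while the other fld untreated arrays read -1.84, -1.96 and -2.15, below all untreated controls (-1.81 to -1.30). Without the 2 doubted arrays its difference was -0.47 without LPS, with no overlap, and -0.03 with LPS, with overlap.

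**Figure D1:**
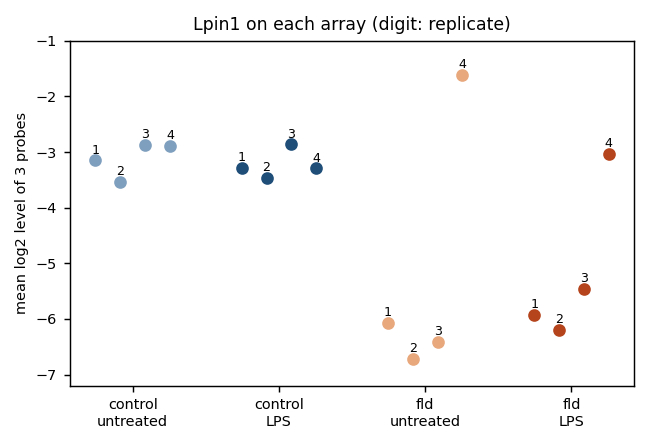
Mean log2 level of 3 Lpin1 probes on each of 16 arrays, relative to the array's 75th percentile, in 4 groups; each point is an array and the digit above it is the replicate. Replicates 1 to 3 of both fld groups lie between -6.72 and -5.46, and replicate 4 lies at -1.62 and -3.03, with the controls between -3.53 and -2.86.

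The labelled cell type was visible on every array. The summed linear level of 7 macrophage genes, among them Cd68, Lyz2 and Csf1r, was 989 to 1658 times the 75th percentile, with all 7 measured. Without LPS it was 989 to 1122 on control arrays and 1142 to 1250 on fld arrays, without overlap. With LPS it was 1109 to 1576 on control arrays and 1353 to 1658 on fld arrays. None of these 7 genes passed limma between genotypes in either condition, against 5.26% and 17.1% of all features. Their median difference was 0.12 without LPS and -0.50 with LPS, against 0.06 and 0.02 over all features. Over both genotypes 4 of the 7 fell with LPS and 1 rose (limma), against 23.6% and 27.2% of all features. The sum therefore does not stand for each of these genes. Of 9 mesothelial markers, Upk3b, Upk1b, Lrrn4 and Wt1 were not above background and the summed level of the other 5 was 0.354 to 1.46. Fibroblast markers, with Pdgfra and Dpt not above background, summed to 1.05 to 3.16 on control arrays and 2.17 to 4.15 on fld arrays. Neutrophil markers, with Cxcr2 and Elane not above background, summed to 1.25 to 2.30 on untreated arrays, 9.14 to 15.9 on control LPS arrays and 19.1 to 26.8 on fld LPS arrays. Markers of B cells (60.5 to 156), mast cells (15.4 to 133), T and NK cells (3.93 to 6.32, with Ncr1 not above background) and dendritic or monocyte-derived cells (205 to 315) were present in all groups, with ranges that overlapped between genotypes in each condition. Markers of large peritoneal macrophages such as Gata6 and Timd4 summed to 203 to 313 on untreated arrays. With LPS they summed to 141 to 202 on control arrays and 43.0 to 155 on fld arrays, the lowest value being that of fld replicate 4. Between genotypes with LPS, 3 of the 4 measured neutrophil markers, 2 of the 5 fibroblast, 2 of the 5 T and NK cell, 1 of the 5 mesothelial and 1 of the 10 dendritic or monocyte-derived markers rose on fld arrays (limma), and 16.2% of all features rose. Without LPS 1 of the 5 T and NK cell and 1 of the 10 dendritic or monocyte-derived markers rose, against 5.03% of all features. Of the 6 B cell markers 1 fell without LPS, against 0.223% of all features. The mesothelial sum with LPS was 0.354 to 0.501 on control arrays and 0.502 to 0.832 on fld arrays. In such bulk samples fewer cells of a type and less RNA per cell cannot be told apart, and the part of these markers in the differences below was not tested.

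Promoters of the 3 genes that were lower on untreated fld arrays and close to control with LPS are shown because they share this pattern of levels. The 250 bases before each start are from RefSeq (GRCm38.p6), written 5' to 3' on the gene's strand. Capitals mark matches, on either strand, to the motifs searched. Of the 8 genes 7 matched the promoter table, at 14 starts in all.
Slco2b1, chr7:99711341-99711590, minus strand: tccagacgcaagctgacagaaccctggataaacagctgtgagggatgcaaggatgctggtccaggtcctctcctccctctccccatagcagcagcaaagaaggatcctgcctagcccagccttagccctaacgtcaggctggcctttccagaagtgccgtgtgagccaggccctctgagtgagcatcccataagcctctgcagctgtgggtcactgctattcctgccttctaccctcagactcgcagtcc
Cd209a, chr8:3748985-3749234, minus strand: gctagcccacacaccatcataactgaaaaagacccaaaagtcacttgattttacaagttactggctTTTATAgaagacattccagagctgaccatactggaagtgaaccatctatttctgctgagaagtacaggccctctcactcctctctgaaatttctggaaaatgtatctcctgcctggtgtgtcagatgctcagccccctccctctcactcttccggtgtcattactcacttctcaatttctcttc
Cdkn2a upstream start, chr4:89294620-89294869, minus strand: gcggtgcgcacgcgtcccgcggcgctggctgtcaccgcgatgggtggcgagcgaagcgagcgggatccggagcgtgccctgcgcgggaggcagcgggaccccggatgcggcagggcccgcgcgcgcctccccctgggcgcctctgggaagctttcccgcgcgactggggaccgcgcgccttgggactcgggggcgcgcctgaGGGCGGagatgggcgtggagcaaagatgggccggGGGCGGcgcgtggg
Cdkn2a downstream start, chr4:89282193-89282442, minus strand: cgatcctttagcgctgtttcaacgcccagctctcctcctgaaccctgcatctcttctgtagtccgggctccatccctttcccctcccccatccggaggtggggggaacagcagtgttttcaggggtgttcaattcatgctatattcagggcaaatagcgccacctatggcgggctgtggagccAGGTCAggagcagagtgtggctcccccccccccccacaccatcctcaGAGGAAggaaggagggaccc

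The motifs were the PU.1 core GAGGAA, AP-1 TGANTCA, the E-box CACGTG, the GC box GGGCGG, the CCAAT box CCAAT, the TATA box TATAAA and the nuclear receptor half-site AGGTCA, and no match overlaps another in the printed windows. Among 32851 promoters of the same length, 23.3% held the PU.1 core, 6.75% the AP-1 motif, 6.02% the E-box, 32.7% the GC box, 33.8% the CCAAT box, 12.4% the TATA box and 14.0% the half-site. The upstream start of Cdkn2a, from which the ARF transcript begins, was 78.4% G or C with 40 CpG dinucleotides and 2 GC boxes, against medians of 52.4% and 6 over all promoters. The downstream start, from which the p16 transcript begins, was 60.0% G or C with 7 CpG, and held 1 PU.1 core and 1 half-site. Cd209a was 44.8% G or C with 1 CpG and a TATA box. Slco2b1 has 3 starts in the table, of which the most upstream is printed; it was 58.0% G or C with 4 CpG and held none of the 7 motifs. The second start of Slco2b1 held none either, and the third held 1 PU.1 core and 1 CCAAT box. The PU.1 core was thus found for Slco2b1 and Cdkn2a, and no motif was found for all 3 genes. These matches are descriptions of letters, not of binding.

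Across the 8 genes the genotype differences fell into 3 patterns. Slco2b1, Cd209a and Cdkn2a were lower on untreated fld arrays and overlapped with control arrays after LPS. Tjp1 was lower on fld arrays in both conditions, and Tanc1 was lower in both with no overlap only after LPS. Kcnj11 and Sorbs2 were higher on fld arrays in both conditions, and Shroom3 was higher without LPS on the spots that could be used. Without LPS the 4 fld arrays did not overlap with the control arrays for 7 of the 8 genes, Tanc1 being the exception, and 15.3% of all features had such non-overlapping groups. With LPS this held for 4 of the 8 (Kcnj11, Tanc1, Tjp1 and Sorbs2), against 19.9% of all features. By limma at an adjusted p under 0.05, 6 of the 8 passed without LPS and 4 of the 8 with LPS, against 5.26% and 17.1% of all features. Since these contrasts chose the genes, nothing is read from the counts. Of the features that passed without LPS, 879 were higher (5.03% of all) and 39 lower (0.223%) on fld arrays, and with LPS 2824 were higher (16.2%) and 157 lower (0.899%). With quantile normalization the split with LPS was 1867 higher and 655 lower. With normexp background correction none passed in either condition (270 and 463 at an unadjusted p under 0.05), and leaving out single arrays moved the count without LPS from 351 (without fld untreated replicate 1) to 1651 (without fld LPS replicate 4). Under normexp no gene of the lists below passed between genotypes either. After extreme local backgrounds were reset (at most 15 spots on an array), some list genes passed with LPS. Among them, 4 of 7 Slco relatives and 7 of 18 tight junction and polarity genes rose. Without LPS no list gene passed after the reset, and 41 of all features did.

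Without the 2 arrays of fld replicate 4, which leaves 3 fld arrays in each condition, every gene kept its overlap or lack of overlap between genotypes. Without LPS the differences were then -2.22 for Slco2b1, -1.46 for Cd209a, -1.70 for Cdkn2a, -1.11 for Tjp1 and -0.65 for Tanc1. They were 1.79 for Kcnj11, 1.12 for Sorbs2 and 3.13 for Shroom3. With LPS they were -0.26 for Slco2b1, 0.09 for Cd209a, -0.19 for Cdkn2a, -1.27 for Tjp1 and -0.89 for Tanc1. For Kcnj11, Sorbs2 and Shroom3 they were 1.36, 2.10 and 0.75. The LPS response of fld cells was then 2.55 for Slco2b1, 1.25 for Cd209a and 1.78 for Cdkn2a. Kcnj11, Sorbs2 and Shroom3 each passed the filter on dim probes only through 1 fld group, untreated for Kcnj11 and Shroom3 and LPS for Sorbs2, so a difference from the other groups was in part a condition of their being measured. Cdkn2a passed it only through the 2 control groups, where its mean level was higher, so the same limit applies to its genotype difference.

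**Figure D2:**
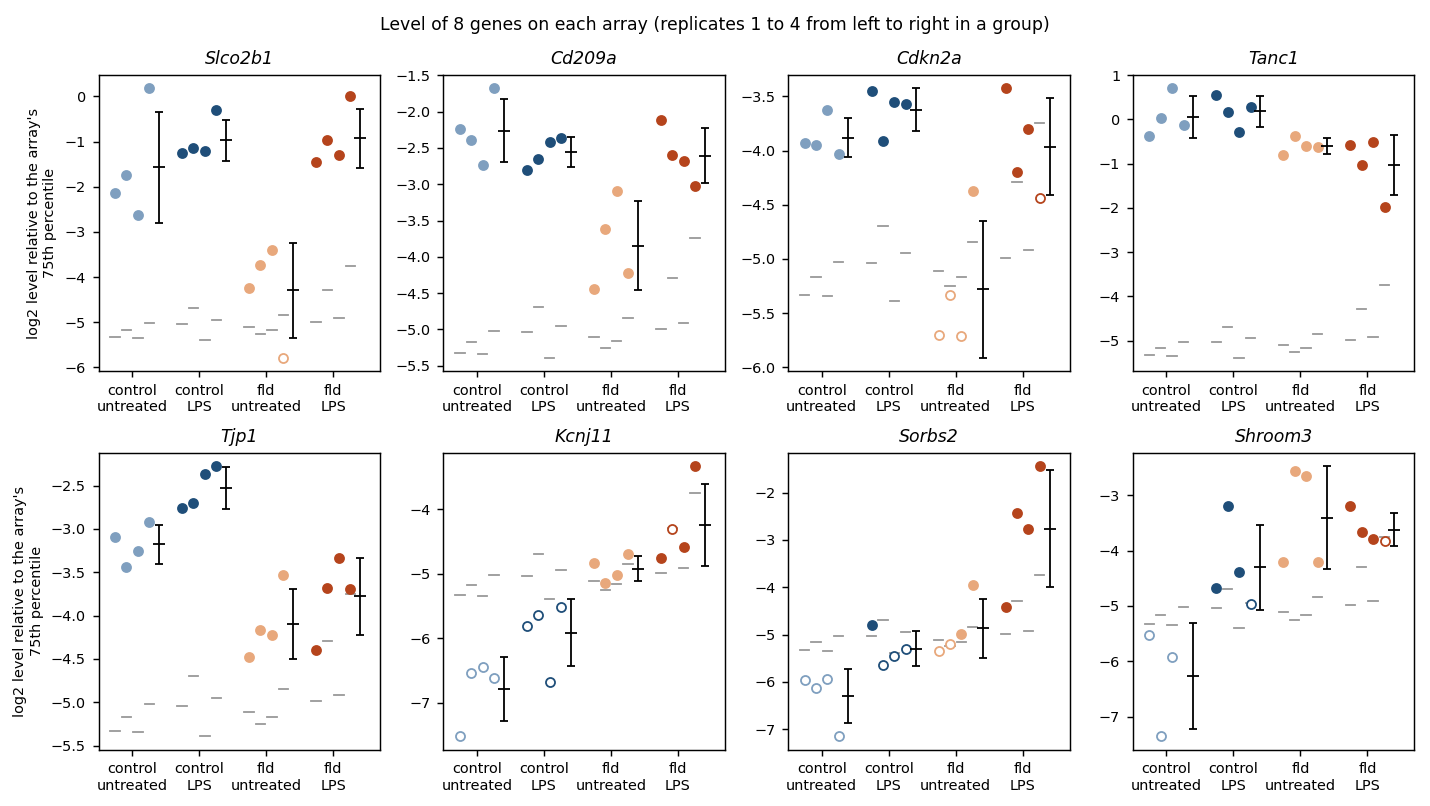
Log2 level of the probe that stands for each gene, relative to the array's 75th percentile; each point is an array, replicates 1 to 4 from left to right, filled where the spot was well above background and open where it was not. Black marks give mean ± SD, and grey dashes give the lowest level well above background on each array. Shroom3 has 3 points in the untreated control group, since 1 spot was flagged. Slco2b1, Cd209a and Cdkn2a are lowest in the untreated fld group, while Kcnj11 and Sorbs2 lie at or below the dashes on most control arrays.

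Slco2b1, the organic anion transporter, had the largest drop of the 8 on untreated fld arrays. Its levels were -2.13, -1.73, -2.62 and 0.19 on control untreated replicates 1 to 4, and -4.25, -3.72, -3.41 and -5.79 on fld untreated replicates 1 to 4. Every fld array was below every control array, control replicate 4 stood above the rest of its group, and the lowest fld spot, on replicate 4, was not well above background. The untreated difference was -2.72 ± 0.58 (SE, n = 4 a group, no test), a 6.58-fold lower level. With LPS the levels were -1.26, -1.14, -1.20 and -0.29 on control arrays and -1.46, -0.96, -1.30 and 0.00 on fld arrays. Those groups overlapped, at a difference of 0.05 ± 0.58. The level on fld arrays was 3.36 ± 0.58 higher with LPS than without it, and on control arrays 0.60 ± 0.58 higher. The 2 LPS responses differed by 2.76 ± 0.82, again with no test because it is built from the contrasts that chose the gene. With normexp background correction, which compresses dim signals, the untreated difference was -1.36.

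Other Slco transporters did not follow Slco2b1. Of 11 listed relatives 7 were measured, and on untreated fld arrays 3 rose and none fell, against 5.03% of all features that rose, with a median difference of 0.70 against 0.06 over all features. The largest called difference was that of Slco1b2, 1.48 ± 0.34 without LPS and 1.29 ± 0.34 with LPS (limma adjusted p = 0.021 and 0.014). Its spots were dim: 0 control untreated, 1 control LPS, 3 fld untreated and 4 fld LPS arrays were well above background. It was thus measured only through the fld LPS group. Slco1a4, a transporter of bile salts and other anions, was 1.12 ± 0.20 higher without LPS and 1.15 ± 0.20 higher with LPS (limma adjusted p = 0.007 and 0.001). Slco3a1, a transporter of prostaglandins and thyroid hormone, was 1.28 ± 0.31 higher without LPS at adjusted p = 0.028. With LPS 4 of the 7 rose and none fell, at a median of 0.85, against 16.2% of all features that rose. With quantile normalization 2 rose and none fell in each condition, and without the fld replicate 4 arrays 2 rose with LPS.

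Cd209a, a mouse homologue of the DC-SIGN lectin, was read by 1 probe whose annotated ends span 672 bases of the genome, against 60 for each other probe of the 8 genes. Its levels were -2.24, -2.39, -2.73 and -1.68 on control untreated arrays and -4.44, -3.62, -3.10 and -4.22 on fld untreated arrays. All 16 spots were well above background, and the 2 groups did not overlap, fld replicate 3 being nearest to control. The difference was -1.58 ± 0.28 (SE, n = 4, no test). With LPS control arrays read -2.80, -2.65, -2.42 and -2.37 and fld arrays -2.12, -2.60, -2.69 and -3.03, at a difference of -0.05 ± 0.28 with overlap. The level was 1.24 ± 0.28 higher with LPS on fld arrays and 0.30 ± 0.28 lower on control arrays, values that differed by 1.53 ± 0.40. With normexp the untreated difference was -0.61.

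Of 7 measured CD209 family and related lectin genes, none passed limma between genotypes in either condition, against 5.26% and 17.1% of all features. At an unadjusted p under 0.05 there were 1 without LPS and 3 with LPS, against 3249 and 4662 of 17465 features. All 7 changed with LPS over both genotypes, 3 upward and 4 downward, against 27.2% and 23.6% of all features. Cd209c, a close relative of Cd209a, stayed below the mark of well above background on the 8 untreated arrays and passed it on the 8 LPS arrays, so that it was at least 2.44-fold higher with LPS in control cells and at least 3.42-fold higher in fld cells (limma adjusted p = 3.9e-08 over both). Mrc1, the mannose receptor, rose by 2.04 ± 0.23 (adjusted p = 4.7e-06). Clec4n, the fungal sugar receptor dectin-2, fell by 2.85 on the log2 scale, with an SE of 0.37 and adjusted p = 1.7e-05.

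Cdkn2a was read by 1 probe printed as 10 spots, whose annotation lists 2 RefSeq transcripts, so the p16 and ARF transcripts cannot be told apart. The SD among its spots on an array was 0.08 to 0.66. Levels were -3.93, -3.95, -3.62 and -4.03 on control untreated arrays and -5.70, -5.34, -5.71 and -4.37 on fld untreated arrays. Of the fld arrays only replicate 4, the one with Lpin1 signal, was well above background, and it was the nearest to the controls without reaching them. The difference was -1.40 ± 0.27 (SE, n = 4, no test). With LPS control arrays read -3.45, -3.91, -3.56 and -3.57, and fld arrays -3.42, -4.20, -3.80 and -4.44, where replicate 4 was not well above background. These overlapped, at a difference of -0.34 ± 0.27, and this value ranged from -0.84 with quantile normalization to 0.22 with normexp after extreme local backgrounds were reset. On fld arrays the level was 1.31 ± 0.27 higher with LPS, on control arrays 0.26 ± 0.27 higher, and the responses differed by 1.05 ± 0.38. The untreated difference was -0.31 with normexp.

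Among 15 genes of the CDK inhibitors and of the Rb and p53 routes, all measured, 2 rose and none fell on untreated fld arrays, against 5.03% of all features that rose. These were Cdkn1a, the p53 target p21, at 0.89 ± 0.21 (limma adjusted p = 0.026) and Cdkn2d, the inhibitor p19Ink4d, at 0.38 ± 0.09 (adjusted p = 0.027). Cdkn2b, the neighbour of Cdkn2a that encodes p15, differed by -0.0038 ± 0.21 without LPS at adjusted p = 0.996; it was chosen for mention after its values were seen. With LPS Trp53 and Cdkn1c rose, by 0.51 ± 0.17 and 0.43 ± 0.14 (adjusted p = 0.049 and 0.048). These 2 of 15 are a smaller share than the 16.2% of all features that rose, 1 of the 15 passed without the fld replicate 4 arrays, and none passed by limma with quantile normalization (4 at an unadjusted p under 0.05). Without LPS 1 of the 15 passed with quantile normalization.

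Tjp1, which encodes ZO-1, was lower on fld arrays in both conditions. Levels were -3.09, -3.45, -3.26 and -2.92 on control untreated arrays and -4.47, -4.17, -4.23 and -3.53 on fld untreated arrays. The groups did not overlap, and fld replicate 4 again lay nearest to the controls. The difference was -0.92 ± 0.23 (SE, n = 4, no test). With LPS control arrays read -2.76, -2.71, -2.36 and -2.28 and fld arrays -4.39, -3.68, -3.34 and -3.70, with no overlap. That difference was -1.25 ± 0.23, a 2.38-fold lower level on fld arrays. The LPS responses of 0.65 ± 0.23 in control and 0.32 ± 0.23 in fld cells differed by -0.33 ± 0.32. With normexp the genotype differences were -0.32 and -0.20. The other Tjp1 probe was not kept as too dim, and its genotype groups overlapped, with mean differences of -0.16 without LPS and 0.82 with LPS.

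Of 22 other tight junction and polarity genes 18 were measured. Without LPS 3 rose and none fell, against 5.03% of all features that rose, but with quantile normalization none rose and 1 fell, and with array weights 4 rose and 1 fell. With LPS 7 rose and none fell, against 16.2% of all features that rose, but with quantile normalization 5 rose and 2 fell. With LPS 1 also fell with array weights or the replicate block (7 rose in each) and without the fld replicate 4 arrays (6 rose). Since calls over all features were mostly higher on fld arrays, the counts show no direction particular to this list. With LPS Cgn, the junction protein cingulin, was 1.48 ± 0.31 higher on fld arrays (limma adjusted p = 0.004), Patj, a polarity scaffold, 1.45 ± 0.23 (adjusted p = 6.3e-04) and Cldn7, a claudin, 1.21 ± 0.17 (adjusted p = 3.0e-04). Tjp3, encoding ZO-3, differed by -0.33 ± 0.19 without LPS and -0.30 ± 0.19 with LPS, at limma adjusted p = 0.384 and 0.350. Tjp3 was chosen for mention after its values were seen.

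Tanc1 was well above background on all 16 arrays. It read -0.38, 0.03, 0.71 and -0.12 on control untreated arrays and -0.80, -0.37, -0.59 and -0.62 on fld untreated arrays, where control replicate 1 fell inside the fld range. The difference was -0.66 ± 0.30 (SE, n = 4, no test). With LPS control arrays read 0.55, 0.18, -0.27 and 0.28 and fld arrays -0.58, -1.04, -0.51 and -1.99, without overlap. That difference was -1.21 ± 0.30, and fld replicate 4 was the lowest array. The second probe, also kept, was well above background on all control arrays, on 1 of 4 fld untreated arrays and on no fld LPS array. It gave a measured difference of -0.59 ± 0.36 without LPS and a level at least 1.40-fold lower on fld arrays with LPS, and its groups overlapped in both conditions. The third probe, too dim to keep, gave -0.82 and -0.46 with overlap. The LPS responses were 0.12 ± 0.30 in control and -0.43 ± 0.30 in fld cells.

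Kcnj11, the Kir6.2 channel subunit, was not well above background on any of the 8 control arrays. Processed intensities there were 2.57, 5.48, 6.72 and 5.94 without LPS and 7.42, 6.68, 6.14 and 9.95 with LPS. On fld arrays they were 14.6, 16.5, 14.8 and 21.7 without LPS and 14.3, 12.7, 17.1 and 18.8 with LPS, and all but LPS replicate 2 were well above background. On the log2 scale control arrays read -7.52, -6.54, -6.45 and -6.62 without LPS and -5.81, -5.65, -6.67 and -5.52 with LPS. The fld arrays read -4.83, -5.14, -5.03 and -4.69 without LPS and -4.75, -4.31, -4.59 and -3.33 with LPS. The genotypes overlapped in neither condition, and the fld levels lay near the lowest level well above background on their arrays. The measured differences were 1.86 ± 0.32 and 1.67 ± 0.32 (SE, n = 4, no test). Because the control levels are only bounds, the fld level was at least 1.23-fold higher without LPS and at least 1.71-fold higher with LPS. Each such bound sets the control mean at the lowest level well above background on each array. With normexp the differences were 0.34 and 0.41.

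Of 15 partners and other inward rectifiers, 14 were on the array and 6 were measured. Without LPS none passed limma between genotypes, against 5.26% of all features, and 1 was at an unadjusted p under 0.05. With LPS 1 of the 6 passed, a share near the 17.1% of all features. This was Kcnj15, the channel Kir4.2, at 0.84 ± 0.19 higher on fld arrays (limma adjusted p = 0.005). Abcc8, the SUR1 subunit that assembles with Kir6.2, was 0.80 ± 0.45 higher without LPS and 1.30 ± 0.45 higher with LPS, at adjusted p = 0.380 and 0.065, and was well above background on 1 of 4 control arrays in each condition. The other SUR subunit gene, Abcc9, was not above background. Abcc8 and Abcc9 were chosen for mention after their values were seen.

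Sorbs2 was higher on fld arrays in both conditions. Levels were -5.97, -6.12, -5.94 and -7.15 on control untreated arrays, none well above background, and -5.34, -5.20, -4.99 and -3.95 on fld untreated arrays, 2 of them well above background. The measured difference was 1.42 ± 0.50 (SE, n = 4, no test), and the bound set as for Kcnj11 was 1.27-fold higher on fld arrays. This bound leans on the doubted replicate 4. The other 3 fld arrays averaged -5.18, inside the range of the lowest level well above background on control untreated arrays (-5.34 to -5.02). With LPS control arrays read -4.79, -5.65, -5.45 and -5.30, 1 of them well above background, and fld arrays -4.41, -2.42, -2.76 and -1.44, all well above background. These groups did not overlap, and the measured difference was 2.54 ± 0.50, with 3 of the 4 control spots not well above background. The highest fld array in both conditions was replicate 4. The LPS responses were 0.997 ± 0.50 in control and 2.11 ± 0.50 in fld cells, apart by 1.12 ± 0.70. With normexp the genotype differences were 0.32 and 0.84. The other 2 Sorbs2 probes were too dim to keep, so the pattern rests on 1 probe, annotated to a predicted transcript.

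Of 12 relatives of Sorbs2 and Tanc1 and related scaffolds, 11 were measured. None passed limma between genotypes in either condition, against 5.26% and 17.1% of all features, nor was any at an unadjusted p under 0.05. With LPS 3 rose and 5 fell over both genotypes, against 27.2% and 23.6% of all features. Tanc2, the paralogue of Tanc1, fell by 2.43 (SE 0.17, limma adjusted p = 4.1e-08), and Sorbs3, the paralogue of Sorbs2 that encodes vinexin, fell by 1.93 (SE 0.22, adjusted p = 5.0e-06). Palld, which encodes the actin cross-linker palladin, rose by 1.57 ± 0.13 (adjusted p = 2.4e-07).

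Shroom3 rests on the handling of 1 spot. The probe that stands for it read -5.53, -7.36 and -5.93 on control untreated replicates 1 to 3, none well above background. The spot on control untreated replicate 4 carried a non-uniformity flag at a processed intensity of 20545, a level of 5.13, and was left out. The fld untreated arrays read -4.21, -2.55, -2.65 and -4.21, all well above background. The difference was 2.86 ± 0.53 (SE, n = 3 and 4, no test), and the fld level was at least 3.66-fold higher. With the flagged spot kept the difference was 0.01. With LPS control arrays read -4.67, -3.20, -4.39 and -4.96 and fld arrays -3.19, -3.67, -3.80 and -3.83, which overlapped at a difference of 0.68 ± 0.49. The other Shroom3 probe, too dim to keep, gave 0.62 without LPS and 1.21 with LPS, with overlap in both. With normexp the untreated difference of the first probe was 0.71.

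Among 10 Shroom partners and actomyosin genes, all measured, 1 rose on fld arrays without LPS and 2 with LPS, and none fell. Of all features 5.03% and 16.2% rose, so the count with LPS is near that background, and with LPS 1 rose with quantile normalization, with array weights and without the fld replicate 4 arrays. Shroom2, a paralogue, was 1.17 ± 0.27 higher without LPS and 0.98 ± 0.27 higher with LPS (limma adjusted p = 0.023 and 0.021). Shroom4, another paralogue, was 1.06 ± 0.24 higher with LPS at adjusted p = 0.007.

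**Figure D3:**
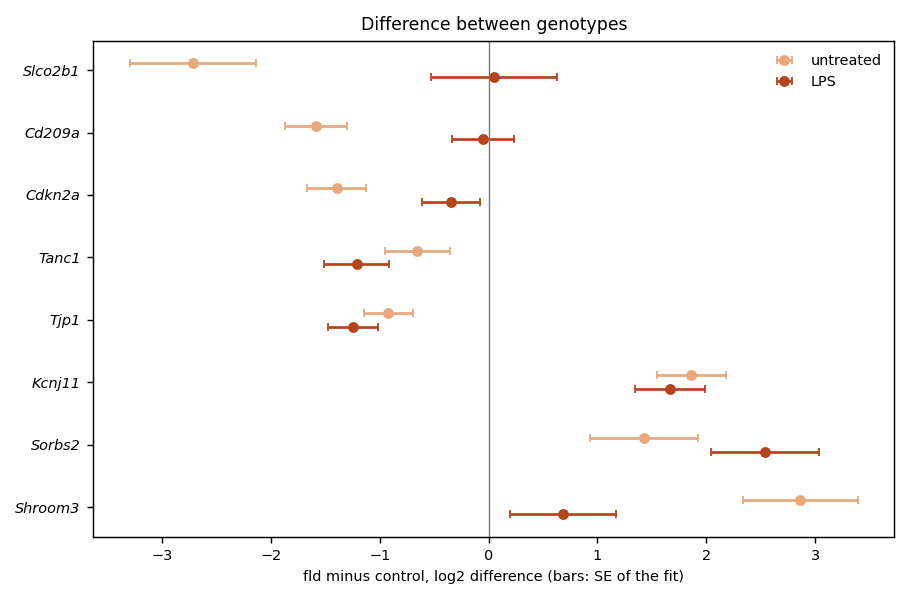
Log2 difference between fld and control arrays for each gene, without and with LPS; points are fitted differences and bars their SE (n = 4 arrays a group, 3 for Shroom3 in untreated controls). Slco2b1, Cd209a and Cdkn2a lie at -2.72, -1.58 and -1.40 without LPS and at 0.05, -0.05 and -0.34 with LPS, while Kcnj11 lies at 1.86 and 1.67.

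**Figure D4:**
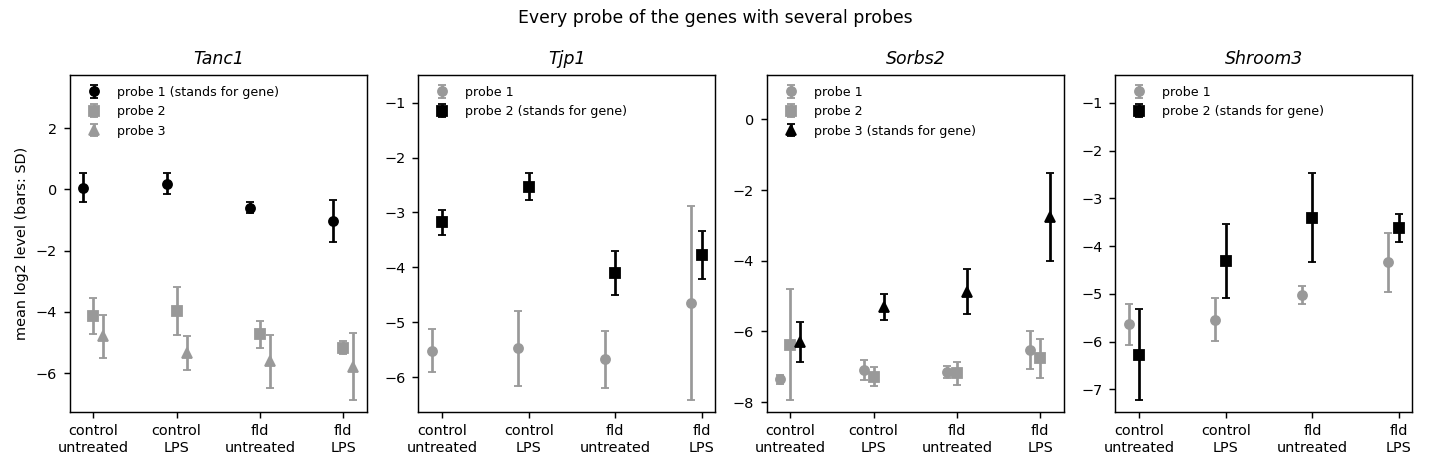
Mean log2 level of every probe of the 4 genes with several probes, in each group; bars are SD over 4 arrays (3 for Shroom3 probe 2 in untreated controls), black marks the probe that stands for the gene. The first and second Tanc1 probes differ between genotypes by -0.66 and -0.59 without LPS, while the dim Tjp1 probe differs by -0.16 against -0.92 for the bright one.

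The LPS response averaged over both genotypes does not use the genotype differences and could be tested. By limma 5 of the 8 genes passed at an adjusted p under 0.05, all upward, against 50.7% of all 17465 features (27.2% upward). A share of 5 in 8 is near the 50.7% that passed in either direction and above the 27.2% that passed upward. The 5 include Kcnj11 and Sorbs2, which were measured only through 1 fld group, so nothing is read from the count. Slco2b1 rose by 1.98 ± 0.41 (SE, adjusted p = 0.001) and Cdkn2a by 0.79 ± 0.19 (adjusted p = 0.003). These 2 means come mostly from fld cells, where the responses were 3.36 ± 0.58 and 1.31 ± 0.27. In control cells they were 0.60 ± 0.58 and 0.26 ± 0.27, and the control LPS and untreated arrays overlapped for both genes. Tjp1 rose by 0.49 ± 0.16 (adjusted p = 0.020), a call lost with quantile normalization at 0.32 and adjusted p = 0.144. Cd209a, at 0.47 ± 0.20, did not pass (adjusted p = 0.062), and Tanc1 stood at -0.15 ± 0.21 (adjusted p = 0.561). For the 3 genes measured only through 1 fld group the values are descriptions: 1.55 ± 0.35 for Sorbs2, 0.77 ± 0.23 for Kcnj11, whose control spots were not well above background in either condition, and 0.88 ± 0.36 for Shroom3. With the flagged spot kept the Shroom3 value was -0.55. The lowest level well above background also reached higher on LPS arrays (-5.39 to -3.75) than on untreated arrays (-5.34 to -4.84), and its part in the values of Kcnj11 and Sorbs2 was not tested.

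**Figure D5:**
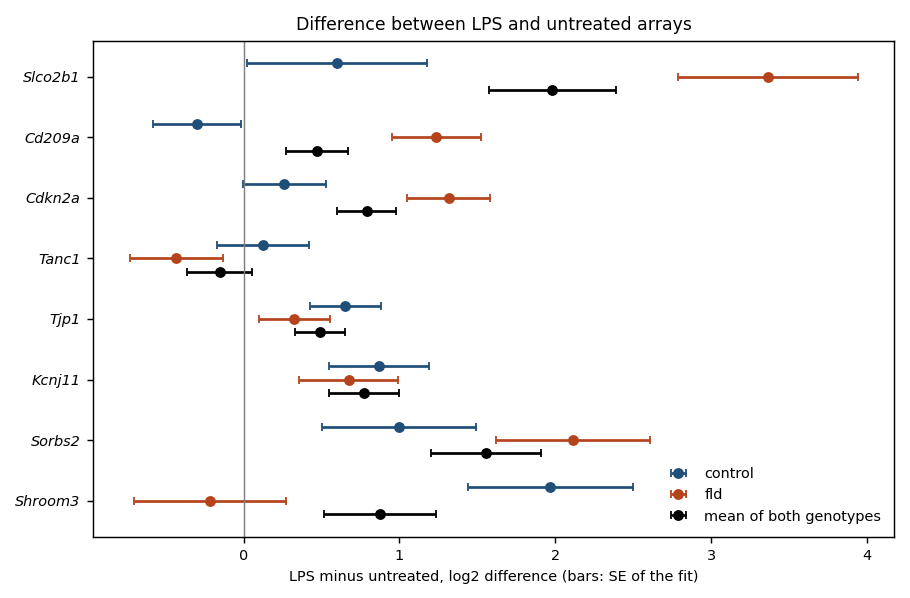
Log2 difference between LPS and untreated arrays for each gene, in control cells, in fld cells and as the mean of both; points are fitted differences and bars their SE. In fld cells Slco2b1 lies at 3.36, Cd209a at 1.24 and Cdkn2a at 1.31, against 0.60, -0.30 and 0.26 in control cells.

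The difference between genotypes in the LPS response passed for none of the 17465 features by limma, whose unadjusted p was under 0.05 for 1649 of them. With quantile normalization 13 features passed, and with array weights 10. No test of it is given for the 8 genes, whose differences in response ran from -2.18 for Shroom3 to 2.76 for Slco2b1.

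Across the 16 arrays the closest pairs of the 8 genes were Kcnj11 with Sorbs2 (r = 0.84) and Slco2b1 with Cd209a (r = 0.81). Kcnj11 and Sorbs2 were each well above background on only 7 of the 16 arrays. All r values of these 2 genes, here and below, thus rest in part on dim spots, and the part of array scaling in them was not tested. Cdkn2a correlated with Cd209a at r = 0.69, with Tjp1 at r = 0.68 and with Slco2b1 at r = 0.58. Tjp1 correlated with Slco2b1, Cd209a and Tanc1 at r = 0.51, 0.50 and 0.53, and Shroom3 with Kcnj11 at r = 0.61 over 15 arrays. Tanc1 ran opposite to Kcnj11 and Sorbs2, at r = -0.69 and -0.71, and Tjp1 opposite to Kcnj11 at r = -0.53. The genes thus did not fall into separate groups by these values. All genes share the same arrays and were chosen for a difference between the same groups, so these values are descriptions. Over all named features the ones most like Slco2b1 were Olfr344 (r = 0.86), Safb and Smarcd1, and those most like Cd209a were Col7a1 (r = 0.82), Slco2b1 itself and Dctn2. Cdkn2a was most like Rhot2 (r = 0.86), Zmynd8 and Aggf1, and Tjp1 most like Whrn (r = 0.88), Def6 and Fcer2a. Tanc1 was most like Slx4ip (r = 0.87), Zdhhc12 and Zc3h13. Kcnj11 was most like Olfr1328 (r = 0.96), Krt13 and Tert, and Sorbs2 most like Eif5a2 (r = 0.95), Aspdh and Dysf. Shroom3, over 15 arrays, was most like Crlf2 (r = 0.82), Slco1b2 and Zbtb41.

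The probes lie at chr7 95689295 to 95689354 for Slco2b1, chr8 3710076 to 3710747 for Cd209a, chr4 88678367 to 88678426 for Cdkn2a and chr7 42273983 to 42274042 for Kcnj11. The probes that stand for the other genes lie at chr2 59776129 to 59776188 for Tanc1, chr7 61154784 to 61154843 for Tjp1, chr8 44553808 to 44553867 for Sorbs2 and chr5 92935824 to 92935883 for Shroom3. These positions are as the array files give them. The sources used here do not name their genome build, so exon and UTR annotation was not used here.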

How the data were processed

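Per the file headers, the authors scanned the arrays with Agilent Feature Extraction 9.5.1.1 (design 014868), and the deposited processed intensity is background-subtracted and detrended. Per the labels, amplified RNA was labelled with Cy3. The deposited value table held the same intensity divided by each array's median (all columns at a median of 1) and served as an alternative.

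Log2 processed intensity minus each array's 75th percentile was used. Outlier-flagged spots were left out (0.208% of values), spots of a probe averaged, and a probe kept where all 4 arrays of some group had it well above background (25534 of 41174). Probes were named through RefSeq by accession for 22951, by symbol for 6659 and by synonym for 3109, and 8455 kept the file's name. The brightest kept probe stood for a gene. Groups were fitted with limma 3.58.1 in R 4.3.3 (4 means, lmFit and eBayes), with Benjamini-Hochberg adjustment over 17465 features at 0.05, two-sided. The fit was tested on simulated data. Precision is limited by 4 arrays a group.

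The 8 genes and all gene lists were chosen with earlier results of these data known. Besides the 8 genes and Lpin1, named genes are the called list members with the largest change, at most 3 a list and comparison, and the 3 features most correlated with each gene; Cdkn2b, Tjp3, Abcc8 and Abcc9 were named after their values were seen. Alternatives were normexp background (offset 50), normexp after local backgrounds above 2 times the array median were reset (chosen after seeing the data), quantile normalization, the value table, no filter on dim probes, outlier spots kept, a replicate block, array weights, and leaving out arrays.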

Additional observations from a re-analysis of the deposited data

Results flagged for a closer look

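In 51 groups of 4 arrays (each kept probe of the 8 genes and of Lpin1, without the Shroom3 group of 3 arrays), the highest or lowest array was set against its distance from the others, and 6 stood apart; chance gives about 1 in 20. Slco2b1 read -0.29 on control LPS replicate 4, with the others between -1.26 and -1.14. Kcnj11 read -7.52 on control untreated replicate 1, with the others between -6.62 and -6.45, none of them well above background. Sorbs2 read -7.15 on control untreated replicate 4, with the others between -6.12 and -5.94, again none well above background. The first Lpin1 probe read -1.55 on fld untreated replicate 4, with the others between -6.59 and -6.29. The third Lpin1 probe read -3.27 on control untreated replicate 2 (others -2.98 to -2.93) and -2.81 on control LPS replicate 3 (others -3.46 to -3.38).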

How the results depend on the processing

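The count of features that differed between genotypes without LPS was 918 and became 0 with normexp (270 at an unadjusted p under 0.05), 41 with normexp after extreme local backgrounds were reset, 535 with quantile normalization and 2280 with array weights. Leaving out 1 array at a time moved it from 351 to 1651: 351 without fld untreated replicate 1, 421 and 471 without control untreated replicates 2 and 3, 501 without fld untreated replicate 4 and 1651 without fld LPS replicate 4. With LPS the count of 2981 became 0 with normexp (463 unadjusted) and 2149 to 3275 with 1 array left out. After the few extreme local backgrounds were reset, 4 of 7 Slco relatives and 7 of 18 tight junction and polarity genes rose with LPS. These counts were the same without normexp. Without LPS no list gene passed after this reset. The cause of the loss with normexp was not tested. With normexp 1124 features changed with LPS in control cells and 1389 in fld cells, against 5231 and 7009. The difference between genotypes in the LPS response passed for 0 features (1649 unadjusted), 13 with quantile normalization, 10 with array weights and 0 to 1 with 1 array left out. The number of the 8 genes that passed in the mean LPS response was 5 and lay between 4 (quantile normalization) and 7 (array weights).

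With outlier spots kept, Shroom3 reversed in the mean LPS response (-0.55), in the LPS response of control cells (-0.88) and in the difference of responses (0.67). Tanc1 reversed in the mean LPS response, at 0.051 with array weights, 0.0018 without both fld replicate 4 arrays and 0.0061 without fld LPS replicate 4, and ranged from -0.24 to 0.0061 with 1 array left out. Slco2b1 and Cdkn2a kept their call in the mean LPS response under every setting run. Cd209a gained it under 6 settings, among them normexp, array weights and without control untreated replicate 4. The cause was not tested.

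The labels do not say whether same-numbered arrays share a mouse, and deviations from the group means do not settle it. Over all pairs of groups, deviations of same-numbered arrays correlated from -0.30 to 0.34. Between untreated and LPS arrays of a genotype they correlated at 0.08 to 0.26 for control and -0.10 to 0.20 for fld. The best match of an untreated array had its own number for control replicates 2, 3 and 4 and for fld replicate 4. With the replicate block 1230 features passed between genotypes without LPS, 3114 with LPS and 9062 in the mean LPS response. Dim signal limits Kcnj11, Sorbs2, Shroom3 and untreated fld Cdkn2a.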
